A study of Homo sapiens with 6 samples.

Results

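The genes described here are 55 protein-coding genes of mitosis, whose products build the spindle, attach chromosomes to it, time the separation of sister chromatids and divide the cell. They were taken as the rows of the count table that carry the 55 listed symbols out of 54261 rows. The list is set by gene function, and it was drawn up with earlier results of these data known. All 55 symbols were found, and 54 had enough reads to be tested. All cells were A549, a line established from a human lung adenocarcinoma, in medium with serum. SNHG17, a long noncoding RNA, was knocked down with siRNA in 3 libraries (si-SNHG17), and 3 libraries came from cells that received a control siRNA (si-NC). The labels used here name neither the siRNA sequences nor the time after transfection. A measured difference belongs to these siRNA preparations in 1 cell line, and the numbered repeats are not stated to be separate cultures, so the p-values measure only the spread between these libraries.

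Cells commit to mitosis when cyclin B and CDK1, released by CDC25 phosphatases and helped by Polo and Aurora kinases, phosphorylate their targets. Most genes of this programme are silent in resting cells and are switched on together late in the cell cycle. Their promoters are known for a short element close to the start site, the cell cycle genes homology region (CHR), and for CCAAT boxes upstream of it. The MuvB core complex binds the CHR, with p130 or p107 and E2F4 as the repressing DREAM complex, or with MYBL2 and FOXM1 as an activator, and NF-Y binds CCAAT boxes. Cycling cells express these genes, and their level is a common readout of proliferation. In RNA from whole cultures, fewer cells in mitosis and less RNA per cell cannot be told apart.

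Mitotic genes were lower after the SNHG17 siRNA. Of 54 tested genes, 47 fell and 1, CDC25B, rose by edgeR's quasi-likelihood test, with p-values adjusted over all 15614 genes tested. The falls were 87.0% of these genes, while 19.6% of all genes tested were called lower and 19.6% higher (39.1% in either direction). Their median log2 fold change was -0.60, or 65.9% of the control level, beside 0.01 for all genes tested. Every si-SNHG17 library lay below every si-NC library for 46 of the 54 genes (85.2%), a separation seen in that direction for 24.3% of all genes and in the opposite one for 25.1%. A fall of at least 2-fold was less common: 10 of the 54 reached it (18.5%, against 4.92% of all genes).

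Read totals ran from 8643076 to 12477214 per library, so a count of 0 allows up to 0.240 to 0.347 CPM (counts after scaling every library to the same total), a limit for counting error only. Within groups the libraries differed by 2.25 to 8.85 chi-square units per degree of freedom, with si-NC replicate 3 apart from its group at 8.40 and 8.85, against 38.4 to 55.3 between groups, and each counted as a separate sample. SNHG17 itself was at 7.82, 8.39 and 11.3 CPM after its siRNA and at 38.7, 36.2 and 51.4 CPM in the controls, with no overlap (log2 fold change -2.21, standard error 0.167, edgeR adjusted p = 2.84e-07). An exact permutation test of its log2 CPM gave p = 0.1, the smallest that 3 against 3 allows. Epithelial keratins and junction genes summed to 4998 to 5011 CPM in si-SNHG17 and 8429 to 9441 CPM in si-NC, and 4 of these 6 markers fell while KRT19 rose; their part in the results was not tested. Immune markers summed to 27.7 to 31.5 CPM and 37.7 to 50.9 CPM, with 3 of 6 at 0 in every library, and 7 stromal and endothelial markers stayed under 1 CPM each. Of the 2 immune markers with enough reads to be tested, CD14 fell (log2 fold change -0.88) and ITGAM rose (0.50). The mitochondrial share of counts was 4.35% ± 0.186 after the SNHG17 siRNA and 7.80% ± 0.471 in controls (SD, n = 3). Without these genes the same numbers of mitotic genes were called, 47 lower and 1 higher.

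**Figure D1:**
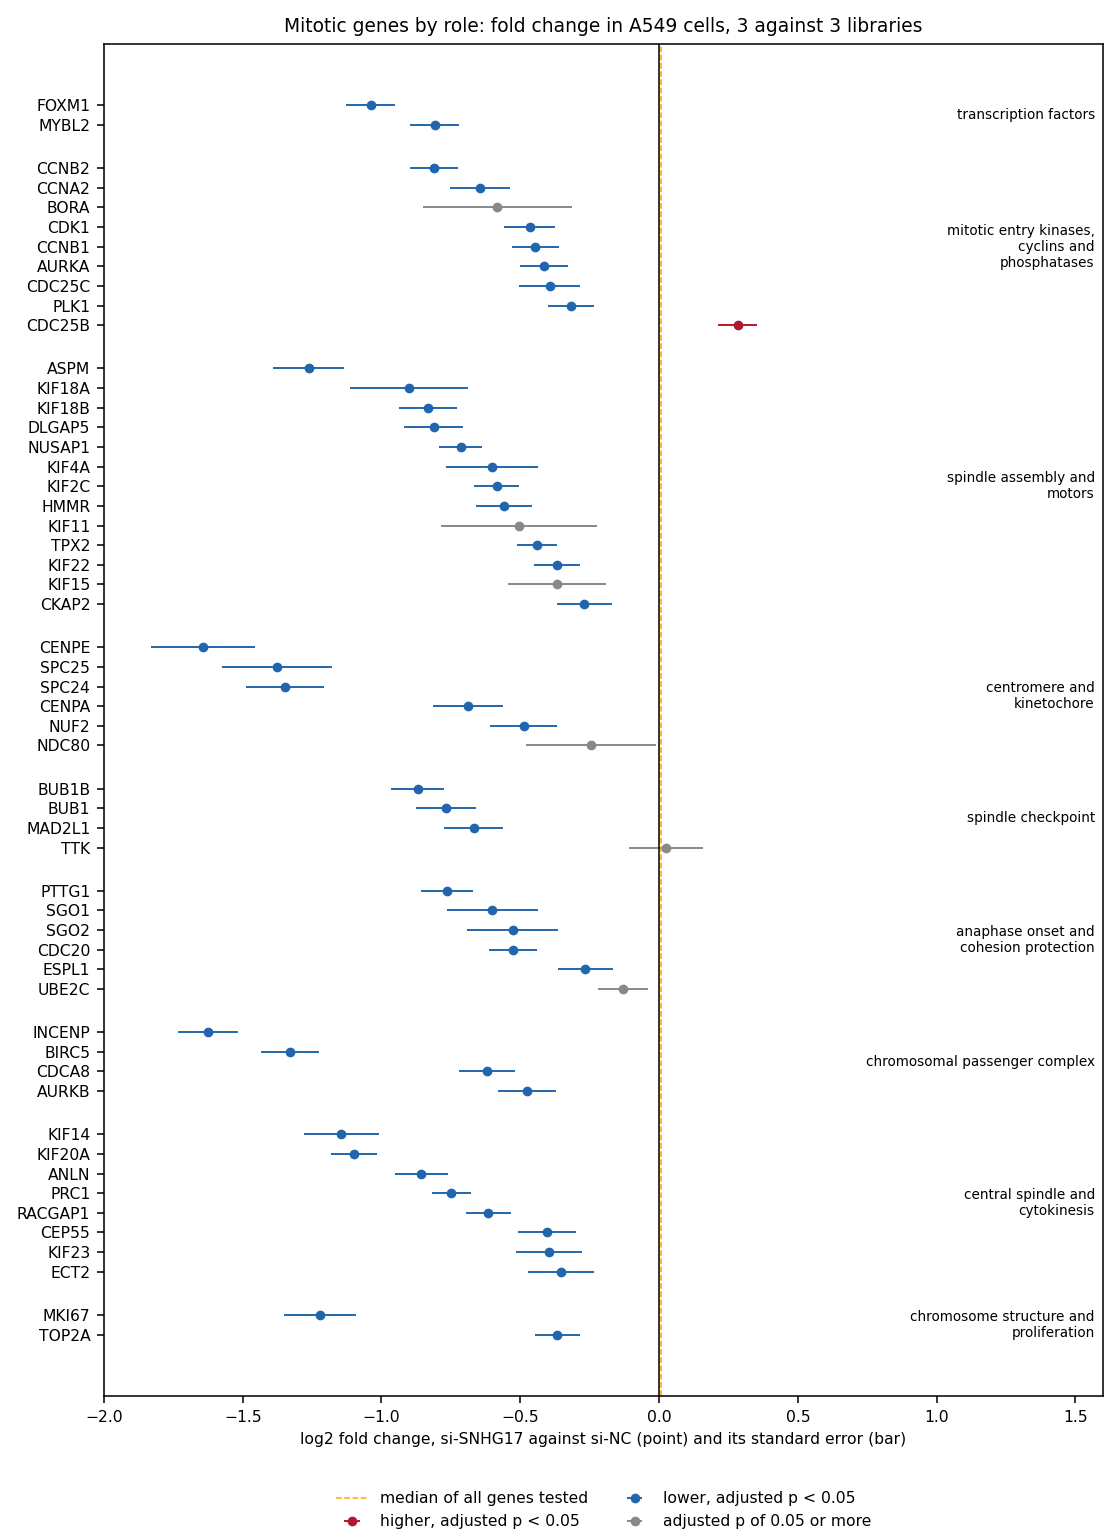
Log2 fold change of the 54 tested mitotic genes (x axis, si-SNHG17 against si-NC) with its standard error, grouped by role (y axis). Blue genes were called lower, red higher, and grey genes did not pass; all blue points lie left of the dashed median of all genes tested, and CDC25B alone lies clearly to its right.

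Summed over the 55 genes, mitotic transcripts made up 4619, 4705 and 4638 CPM after the SNHG17 siRNA and 6695, 6746 and 6362 CPM with the control siRNA. The groups stood apart, and the si-SNHG17 mean was 70.5% of the control mean. CDC25B and TOP2A, the 2 most abundant genes of the set by CPM, carried much of this sum. Without them the sum averaged 3095 ± 54.7 CPM in si-SNHG17 and 5030 ± 190.9 CPM in si-NC (SD, n = 3), a ratio of 61.5%. The 3 si-SNHG17 libraries behaved alike: the median difference of the tested genes from the control mean was -0.60, -0.59 and -0.65 on the log2 scale. In these libraries 49, 50 and 50 of the 54 genes were below every si-NC library. Over all genes tested this share was computed only for the 3 si-SNHG17 libraries together, where it was 24.3%.

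**Figure D2:**
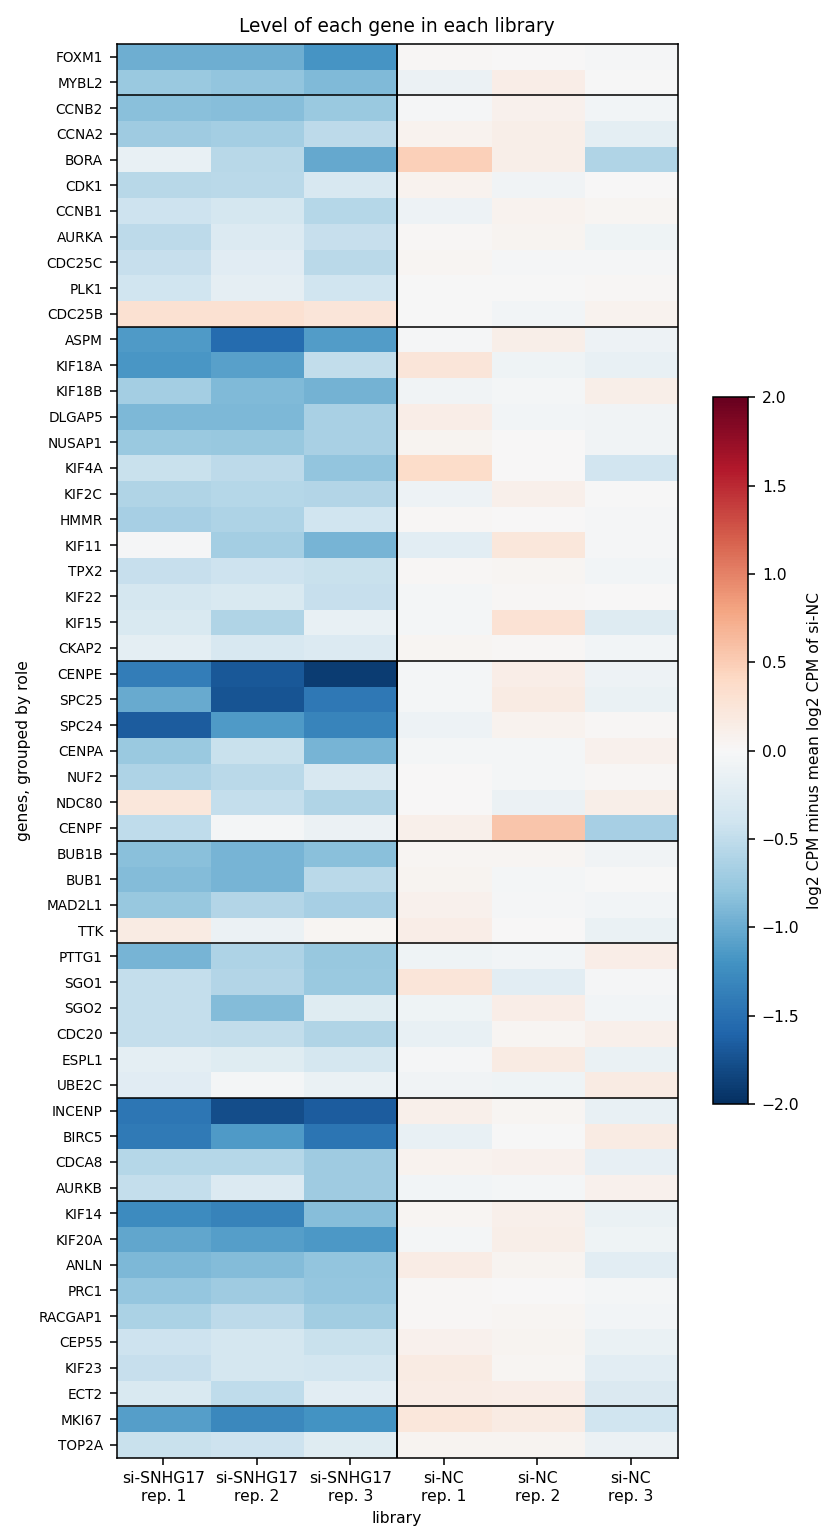
Level of each of the 55 genes (rows, by role) in each of the 6 libraries (columns), as log2 CPM minus the mean log2 CPM of si-NC, blue for lower and red for higher. The 3 si-SNHG17 columns are blue in most rows, with CDC25B as the row that is red in all 3, and the si-NC columns are pale apart from thinly counted genes such as BORA and CENPF.

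The promoters of these genes were examined because the genes moved together. RefSeq promoter sequences (GRCh38.p14, from 250 bases before to 50 bases after each annotated start) were matched by symbol for 48 of the 55 genes, with 60 entries in all. A CHR, searched as TTTGAA or TTCGAA on either strand, was present in 37 of the 48 genes (77.1%) and in 19.5% of the 27305 genes with an entry. CCAAT on either strand was present in 39 of 48 (81.2%) and in 39.7% of all genes. A CHR and a CCAAT together in 1 promoter were found in 32 of 48 (66.7%, against 7.85% of all genes), and at least 2 CCAAT in 23 of 48 (47.9%, against 12.9%). The E2F sequences TTTGGCGC and TTTCCCGC were found in 3 of 48 genes (6.25%, against 2.75% of all genes and 4.58% of those tested for expression). From 150 bases before the start they were found in 1 of 48 (2.08%, against 1.92% and 3.19%). Within 50 bases of the start on either side, a window chosen after the positions were seen, 66.7% of the 48 genes and 6.24% of all genes had a CHR. Matches are letters in a window, and binding was not measured.

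The 150 bases before the start are shown for 6 genes, so that windows with both elements can be set beside windows with CCAAT alone. They were taken from genes whose window holds no exon of either strand in GENCODE 29. They are written 5′ to 3′ on the strand of the gene, and capitals mark every CHR and CCAAT match on either strand (ATTGG is CCAAT, and TTCAAA is TTTGAA, on the other strand). MKI67 (chr10:128126424-128126573, minus strand), which fell more than 2-fold, has 2 CHR and 2 CCAAT matches, and the CHR nearer the start overlaps a CCAAT on the other strand. CEP55 (chr10:93496462-93496611, plus), ESPL1 (chr12:53268149-53268298, plus) and KIF11 (chr10:92592980-92593129, plus) each have 1 of both within these 150 bases. A further CHR match of CEP55 begins at -3 from the annotated start and runs past the stretch shown, so it is not in capitals. CEP55 and ESPL1 were called lower and KIF11 did not pass.
MKI67: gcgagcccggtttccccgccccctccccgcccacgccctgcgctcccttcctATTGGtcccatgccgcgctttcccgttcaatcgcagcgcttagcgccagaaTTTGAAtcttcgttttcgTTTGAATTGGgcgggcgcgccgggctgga
CEP55: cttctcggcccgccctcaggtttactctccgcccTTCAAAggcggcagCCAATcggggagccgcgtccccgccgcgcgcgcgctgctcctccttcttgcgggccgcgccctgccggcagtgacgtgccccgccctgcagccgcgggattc
ESPL1: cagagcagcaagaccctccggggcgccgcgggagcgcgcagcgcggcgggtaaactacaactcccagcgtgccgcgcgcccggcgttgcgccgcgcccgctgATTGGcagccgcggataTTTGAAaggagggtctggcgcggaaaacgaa
KIF11: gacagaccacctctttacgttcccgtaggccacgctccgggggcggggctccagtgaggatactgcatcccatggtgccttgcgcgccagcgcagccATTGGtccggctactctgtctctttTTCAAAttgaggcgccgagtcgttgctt
KIF14 (chr1:200620752-200620901, minus strand) has 1 CCAAT and no CHR in these 150 bases, and fell more than 2-fold. CENPF (chr1:214603045-214603194, plus) has 3 CCAAT and no CHR there, and was too thinly counted to test. Both have a CHR after the annotated start, outside the stretch shown.
KIF14: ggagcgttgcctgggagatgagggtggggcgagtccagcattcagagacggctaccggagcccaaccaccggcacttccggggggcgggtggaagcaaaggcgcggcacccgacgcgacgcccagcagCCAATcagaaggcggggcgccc
CENPF: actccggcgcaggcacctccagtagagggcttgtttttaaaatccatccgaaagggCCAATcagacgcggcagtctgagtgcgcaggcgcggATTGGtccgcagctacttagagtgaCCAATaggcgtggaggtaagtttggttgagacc

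Genes with and without a TTTGAA or TTCGAA match had close median fold changes. No other form of the CHR was searched, so a gene without a match is not shown to lack the element. The 36 tested genes with a match had a median log2 fold change of -0.60 and ran from -1.63 to 0.28. The 11 tested genes with an entry and no match had a median of -0.65 and ran from -1.64 to -0.27. With and without CCAAT the medians were -0.61 (38 genes) and -0.58 (9 genes). These are descriptions over few genes, with no test.

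**Figure D3:**
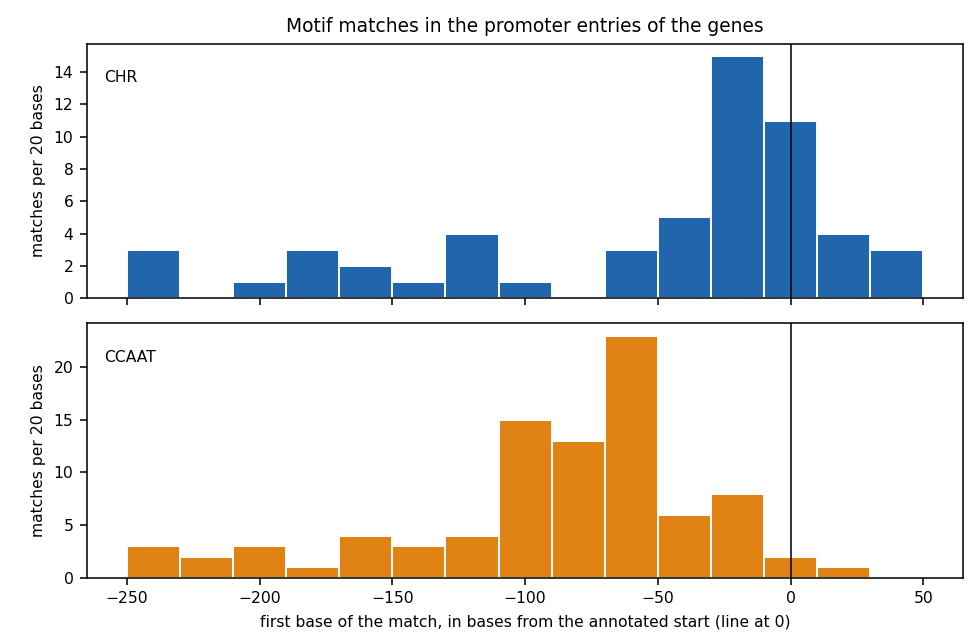
Number of CHR matches (top) and CCAAT matches (bottom) per 20 bases of promoter (y axes) by distance of their first base from the annotated start (x axis), over the 60 promoter entries of 48 genes. The 56 CHR matches have a median position of -28 and the 88 CCAAT matches one of -74. The order of the elements within each promoter was not compared, and a site shared by overlapping entries counts in each.

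Both transcription factors of the set fell. Counts in this and the following role classes are to be read against the share over all genes tested. Of those, 19.6% were called lower and 39.1% in either direction. FOXM1, the forkhead factor that activates late cell cycle genes, was at 56.9, 57.0 and 49.1 CPM in si-SNHG17 and at 113.4, 112.3 and 109.7 CPM in si-NC. The groups did not overlap (log2 fold change -1.04, standard error 0.088, edgeR adjusted p = 8.07e-07). MYBL2, the B-Myb protein that binds the MuvB core in S phase, was at 81.0, 77.7 and 73.0 CPM against 124.4, 147.3 and 134.0 CPM. Its libraries separated as well, with a log2 fold change of -0.81. The ratio of FOXM1 to MYBL2 within a library, which does not depend on library scaling, was lower in all si-SNHG17 libraries, by 0.24 on the log2 scale (standard error 0.083, exact permutation p = 0.1).

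Of the 9 genes of mitotic entry, 7 fell and 1 rose, beside 19.6% of all genes tested called lower and 19.6% higher. CCNB2, a B-type cyclin, was at 54.4, 53.9 and 58.6 CPM after the SNHG17 siRNA and at 95.5, 103.7 and 93.7 CPM in the controls, a log2 fold change of -0.81 (standard error 0.087, edgeR adjusted p = 6.56e-06). CCNA2, the cyclin of S phase and early mitosis, was at 32.3, 33.2 and 36.8 CPM against 55.6, 57.9 and 46.6 CPM, a log2 fold change of -0.65. Neither gene's groups overlapped. CCNB1, the major mitotic cyclin, had a log2 fold change of -0.45 and CDK1, its kinase, one of -0.47. The ratio of CCNB1 to CDK1 differed by 0.02 between the groups (standard error 0.169, exact permutation p = 0.9), while that of CCNB1 to CCNB2 was higher in every si-SNHG17 library, by 0.36 (standard error 0.115, p = 0.1).

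CDC25B rose. This phosphatase, which starts CDK1 activation at the centrosome, is encoded on chromosome 20 from 3786772 to 3806121 (GENCODE 29, GRCh38). It was at 955.1, 948.4 and 915.9 CPM in si-SNHG17 and at 764.6, 740.6 and 812.1 CPM in si-NC. All si-SNHG17 libraries exceeded all controls, with a log2 fold change of 0.28 (standard error 0.071, edgeR adjusted p = 0.00588). Its relative CDC25C, which acts with it at entry, fell by 0.39 on the log2 scale, a call that was lost without si-SNHG17 replicate 1 or replicate 3 (edgeR adjusted p = 0.0529 and 0.0571). The CDC25B to CDC25C ratio was higher in each si-SNHG17 library, by 0.69 on the log2 scale (standard error 0.099, exact permutation p = 0.1).

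Both kinases of the entry class that act with BORA fell. PLK1, the Polo kinase, had a log2 fold change of -0.32, or 80.2% of control, and AURKA, the centrosomal Aurora kinase, one of -0.42. BORA, the cofactor through which AURKA activates PLK1, was at 7.51, 5.67 and 4.10 CPM against 11.6, 9.07 and 5.53 CPM. Its groups overlapped and it did not pass (log2 fold change -0.58, standard error 0.268, edgeR adjusted p = 0.102), although it did without si-NC replicate 3 (adjusted p = 0.00578) and with a replicate block (0.0291). BORA shares 37.0% of its exon bases with DIS3, a ribonuclease gene on the opposite strand, and whether reads were counted by strand is not given.

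Of the 13 spindle assembly and motor genes, 11 fell and none rose, with a median of -0.58. ASPM, which focuses spindle poles, was at 19.8, 15.0 and 19.9 CPM in si-SNHG17 against 42.9, 47.2 and 40.4 CPM in si-NC. Its log2 fold change of -1.26 (standard error 0.128, edgeR adjusted p = 3.96e-06) was the largest fall of this class. NUSAP1, a microtubule bundler, was at 108.9, 107.3 and 115.3 CPM against 188.6, 181.9 and 173.4 CPM, a log2 fold change of -0.71. The libraries of both genes separated by group. Exons of NUSAP1 overlap another GENCODE gene on the same strand over 62.2% of their bases, so its reads may be shared.

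Among the kinesins, KIF18A, which damps chromosome oscillation, and KIF18B, which works on astral microtubules, fell (-0.90 and -0.83). The microtubule depolymeriser KIF2C (-0.58) and the chromokinesins KIF4A (-0.60) and KIF22 (-0.37) fell as well. The KIF4A call was lost without si-SNHG17 replicate 3 (edgeR adjusted p = 0.0628) or si-NC replicate 1 (0.057), and its intronless copy KIF4B held 26.5% as many counts, so reads may be split between them. TPX2, the activator of AURKA on the spindle, fell by 0.44, and the AURKA to TPX2 ratio differed by 0.02 between groups (standard error 0.058, exact permutation p = 0.9). DLGAP5 (-0.81) and HMMR (-0.56), both microtubule-associated spindle proteins, also fell.

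Of the motors that push spindle poles apart, KIF11 had few reads, at 17 to 44 counts per library, and KIF15 had 110 to 176. KIF11 was at 3.65, 2.32 and 1.94 CPM in si-SNHG17 against 3.19, 4.34 and 3.65 CPM in si-NC (log2 fold change -0.51, standard error 0.282, edgeR adjusted p = 0.174). KIF15, its backup motor, was at 11.5, 9.27 and 12.8 CPM against 13.8, 17.4 and 11.8 CPM (log2 fold change -0.37, standard error 0.176, adjusted p = 0.116, but 0.0257 without si-NC replicate 3). Both genes' groups overlapped, and neither passed. CKAP2, a microtubule stabiliser, was at 33.0, 30.2 and 31.2 CPM against 38.8, 38.4 and 36.5 CPM. Its fall of 0.27 on the log2 scale passed by little (adjusted p = 0.0426) and was lost without any of the libraries other than si-NC replicate 3 (adjusted p = 0.0673 to 0.14).

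**Figure D4:**
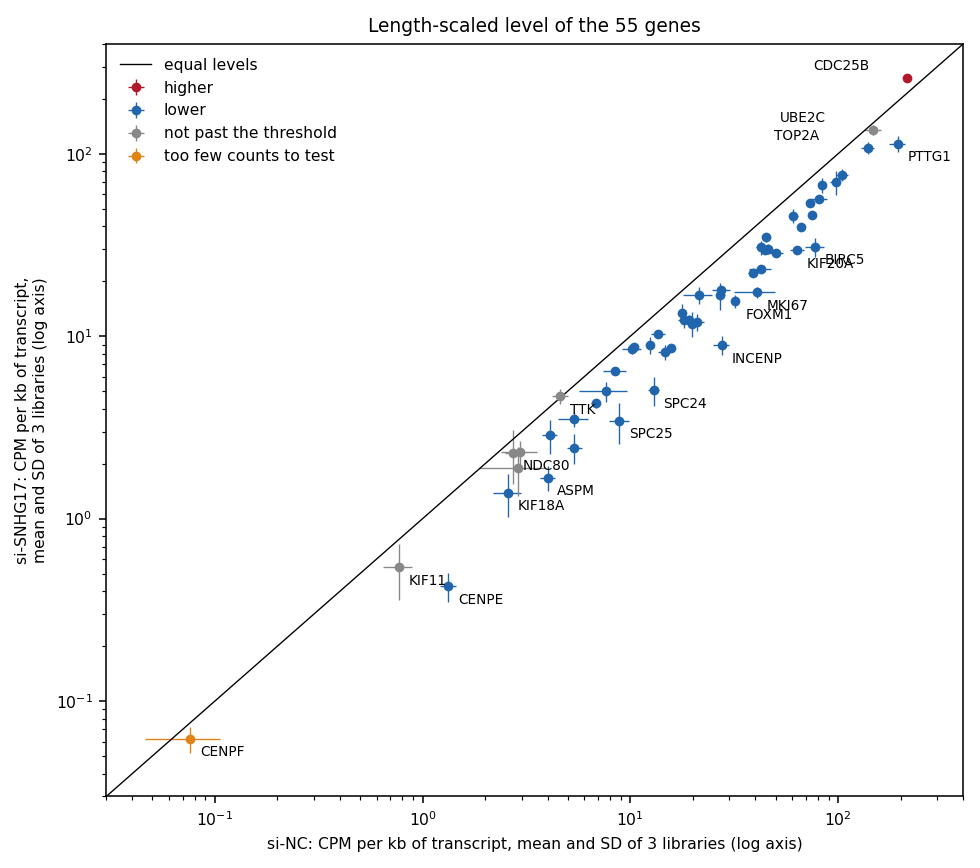
Level of each of the 55 genes in si-SNHG17 (y axis) against si-NC (x axis), as CPM per kb of the longest coding transcript on log axes, with the mean and SD of 3 libraries. Most points lie under the line of equal levels; CDC25B lies above it, and CENPF lies far below the other genes on both axes.

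Of 6 tested centromere and kinetochore genes, 5 fell and none rose, with a median of -1.02. CENPE, the kinesin that carries chromosomes to the spindle equator, was at 4.38, 3.52 and 3.08 CPM after the SNHG17 siRNA and at 11.2, 12.5 and 10.7 CPM in the controls. These levels rest on 42, 44 and 27 counts against 98, 127 and 114. The groups were far apart, with a log2 fold change of -1.64 (standard error 0.189, edgeR adjusted p = 1.27e-05), or 32.0% of control, the lowest share among the tested mitotic genes. INCENP, at 32.4% of control (log2 fold change -1.63), was within that standard error. SPC24, a subunit of the Ndc80 complex that binds microtubules, was at 9.489, 13.66 and 11.97 CPM against 27.8, 31.6 and 30.5 CPM (log2 fold change -1.35, standard error 0.141). SPC25, with which SPC24 forms a dimer, fell by 1.38, and the ratio of SPC24 to SPC25 differed by 0.01 between groups (standard error 0.37, exact permutation p = 1).

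NUF2 and NDC80 form the other dimer of the same complex. NUF2 fell by 0.49 on the log2 scale. NDC80 was at 6.88, 4.23 and 3.87 CPM in si-SNHG17 against 5.92, 5.42 and 6.37 CPM in si-NC, with overlapping groups and a log2 fold change of -0.25 (standard error 0.234, edgeR adjusted p = 0.439). The NDC80 to NUF2 ratio differed by 0.21 (standard error 0.331, p = 0.8 by the exact test), an interval wide enough to hold either sign. CENPA, the histone variant that marks centromeres, fell by 0.69.

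CENPF, a large kinetochore and nuclear envelope protein that is abundant in cycling cells, could not be tested. It had 5, 9 and 6 counts after the SNHG17 siRNA and 7, 11 and 5 in controls, or 0.641 ± 0.105 CPM and 0.783 ± 0.309 CPM (SD, n = 3), and the groups overlapped. Per kb of transcript its control level was 0.076 CPM, against a median of 21.0 CPM per kb over the 55 genes and 0.767 for KIF11, the next lowest. Why this row holds so few reads was not tested.

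Of the 4 spindle checkpoint genes, 3 fell. BUB1B, the BubR1 protein that restrains the anaphase-promoting complex, was at 32.6, 30.5 and 32.6 CPM against 59.8, 59.9 and 55.3 CPM in controls (log2 fold change -0.87, standard error 0.095, edgeR adjusted p = 8.23e-06). BUB1, the kinase that recruits it to kinetochores, was at 39.2, 37.4 and 49.1 CPM against 73.8, 69.2 and 70.5 CPM (log2 fold change -0.77). Both separated by group, and their ratio differed by 0.09 (standard error 0.112, exact permutation p = 0.7). MAD2L1, the inhibitor that captures CDC20, fell by 0.67; its named copy MAD2L1P1 also held reads.

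TTK was the checkpoint gene that did not pass. This kinase, also called MPS1, starts the signal at unattached kinetochores. It was at 19.1, 15.8 and 17.5 CPM in si-SNHG17 and at 18.7, 17.3 and 15.5 CPM in si-NC. The groups overlapped (log2 fold change 0.03, standard error 0.133, edgeR adjusted p = 0.897). Its sign turned to -0.04 without si-SNHG17 replicate 1 or si-NC replicate 3.

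Of the 6 genes of anaphase onset and cohesion protection, 5 fell. PTTG1, securin, which holds separase inactive, was at 108.8, 134.2 and 122.2 CPM against 193.8, 199.6 and 227.3 CPM (log2 fold change -0.76, standard error 0.094, edgeR adjusted p = 2.3e-05). CDC20, the activator of the anaphase-promoting complex, was at 103.2, 102.7 and 94.36 CPM against 130.01, 147.7 and 154.4 CPM (log2 fold change -0.53). The libraries of both genes separated by group. Named copies of PTTG1 and CDC20 also held reads: PTTG3P had 3.95% as many counts as PTTG1 and CDC20P1 13.0% as many as CDC20.

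ESPL1, separase itself, fell by 0.27 with an edgeR adjusted p of 0.0477, which was lost without any of the libraries other than si-NC replicate 3 (adjusted p = 0.0759 to 0.237). The ratio of PTTG1 to ESPL1 was lower in every si-SNHG17 library, by 0.51 on the log2 scale (standard error 0.183, exact permutation p = 0.1). The shugoshins, which protect centromeric cohesion, fell by 0.60 (SGO1) and 0.53 (SGO2). The SGO1 call was lost without si-NC replicate 1 (adjusted p = 0.0538), and the SGO2 call without replicate 2 of either group (0.0947 for si-SNHG17 and 0.0792 for si-NC). UBE2C, the ubiquitin-conjugating enzyme of the anaphase-promoting complex, was at 115.2, 130.9 and 122.8 CPM against 127.7, 126.3 and 149.6 CPM. Its groups overlapped, and its log2 fold change of -0.13 (standard error 0.090, adjusted p = 0.276) did not pass.

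All 4 subunits of the chromosomal passenger complex, which corrects attachments and then guides cleavage, fell. INCENP, the scaffold, was at 40.0, 31.9 and 34.2 CPM after the SNHG17 siRNA and at 116.5, 112.0 and 98.4 CPM in the controls. That left 32.4% of control (log2 fold change -1.63, standard error 0.107, edgeR adjusted p = 7.63e-08), the smallest p among the mitotic genes. The gene lies on chromosome 11 from 62123973 to 62153163 (GENCODE 29), where no other annotated exon overlaps it. BIRC5, survivin, which targets the complex to centromeres, was at 78.9, 95.3 and 76.5 CPM against 189.6, 207.6 and 233.8 CPM (log2 fold change -1.33, standard error 0.103, adjusted p = 3.63e-07).

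AURKB, the kinase subunit, was at 87.7, 100.5 and 74.1 CPM in si-SNHG17 against 117.3, 118.6 and 129.6 CPM in si-NC, with groups apart and a log2 fold change of -0.48 (standard error 0.105). CDCA8, borealin, fell by 0.62. The AURKB to INCENP ratio was higher in every si-SNHG17 library, by 1.14 on the log2 scale (standard error 0.214), and the BIRC5 to CDCA8 ratio lower, by 0.71 (standard error 0.182). The exact permutation test gave p = 0.1 for each, the smallest possible here.

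**Figure D5:**
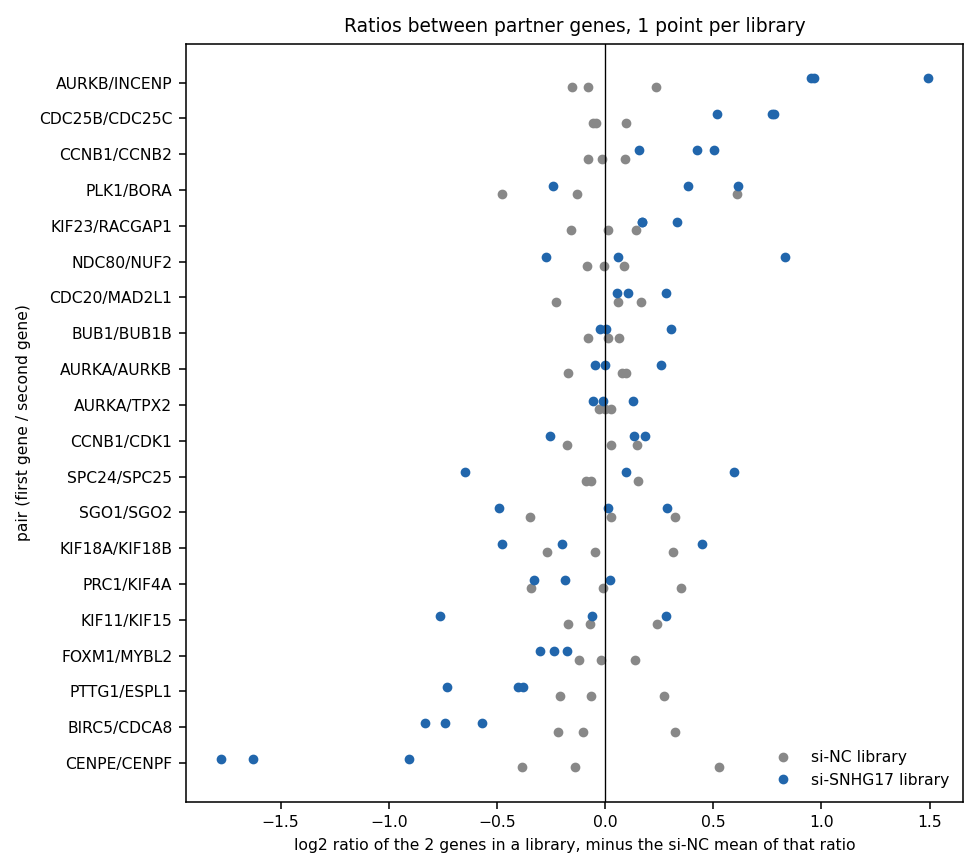
Log2 ratio of 2 partner genes in each library, minus the si-NC mean of that ratio (x axis), for 20 pairs (y axis); blue points are si-SNHG17 and grey points si-NC libraries. In 8 pairs the blue and grey points do not overlap, with AURKB/INCENP highest and CENPE/CENPF lowest.

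In all, 20 pairs of partners or paralogs were compared, and the groups stood apart in 8. Ratios of other gene pairs were not computed, so how often any pair would stand apart is not known. Taken singly, 24.3% of all genes tested stood apart as lower and 25.1% as higher. None of the 20 pairs could pass: the smallest exact permutation p was 0.1 and the smallest value adjusted over them was 0.25. The 12 overlapping pairs included AURKA with AURKB, whose ratio differed by 0.07 (standard error 0.128), and SGO1 with SGO2 (-0.07, standard error 0.299). CENPE with CENPF was apart (-1.44, standard error 0.382), but that ratio rests on the 5 to 11 counts of CENPF.

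All 8 genes of the central spindle and cytokinesis fell, with a median of -0.68. KIF20A, the kinesin that moves the passenger complex to the midzone, was at 98.7, 94.3 and 91.2 CPM in si-SNHG17 against 198.0, 220.2 and 191.1 CPM in si-NC. It kept 46.6% of the control level (log2 fold change -1.10, standard error 0.083, edgeR adjusted p = 2.72e-07). PRC1, which crosslinks the antiparallel microtubules of the midzone, was at 158.7, 166.3 and 159.3 CPM against 276.7, 272.1 and 264.8 CPM (log2 fold change -0.75, standard error 0.072). Both genes' groups were well apart. Exons of PRC1 are shared with other annotated genes over 64.9% of their bases, mostly on the same strand.

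KIF14, a partner of PRC1, fell by 1.14 and ANLN, the anillin scaffold of the contractile ring, by 0.86. The centralspindlin subunits RACGAP1 (-0.61) and KIF23 (-0.40) fell, and the KIF23 to RACGAP1 ratio was higher in each si-SNHG17 library, by 0.22 (standard error 0.102, exact permutation p = 0.1). The call for KIF23 did not hold without replicate 1 of si-SNHG17 (edgeR adjusted p = 0.0688) or replicates 1 or 2 of si-NC (0.0846 and 0.0575). CEP55, which recruits the abscission machinery, fell by 0.41. ECT2, the exchange factor that activates RhoA at the equator, was at 75.3, 65.3 and 80.6 CPM against 103.0, 102.8 and 76.7 CPM. It was the only gene called lower whose groups overlapped, and its fall of 0.35 (adjusted p = 0.0292) was lost without si-SNHG17 replicates 1 or 2 or si-NC replicates 1 or 2 (adjusted p = 0.0706, 0.13, 0.101 and 0.117) and with library totals only (0.0548).

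Both genes of chromosome structure and proliferation fell. MKI67, the Ki-67 protein that coats mitotic chromosomes and serves as a proliferation marker, was at 235.7, 205.7 and 220.6 CPM in si-SNHG17 and at 591.9, 566.7 and 384.7 CPM in si-NC. All controls were higher, and replicate 3 was the lowest of them (log2 fold change -1.22, standard error 0.13, edgeR adjusted p = 6.39e-06). TOP2A, the topoisomerase that untangles sister chromatids, was at 584.4, 600.9 and 673.0 CPM against 832.1, 828.9 and 736.2 CPM. The groups did not overlap, and the log2 fold change was -0.37 (standard error 0.081).

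Scaled to transcript length, control levels of the 55 genes ran from 0.076 CPM per kb (CENPF) to 214.7 ± 10.1 (CDC25B). CDC25B was followed by PTTG1 at 193.4 ± 16.7 CPM per kb, UBE2C at 147.2 ± 14.3, TOP2A at 138.8 ± 9.46 and CCNB1 at 104.7 ± 6.75 (SD, n = 3). UBE2C and TOP2A differed by less than the SD of either gene, and CDC25B and PTTG1 by more. The order of these genes was not tested. The median was 21.0, and KIF11 and CENPF were the 2 genes under 1 CPM per kb. Over the 54 tested genes, Spearman's rho between the log2 fold change and the control level per kb was 0.112, and with transcript length it was -0.167. Both are across genes that share the same 6 libraries.

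Other genes of mitosis were counted in lists that hold none of the 55, to be read against the 19.6% of all genes called lower and the 39.1% called in either direction. Of 8 condensin genes, 6 fell and none rose, with NCAPD3 (-1.78), SMC2 (-1.08), NCAPG2 (-0.85) and NCAPH (-0.53). Of 12 tested cohesin genes, 4 fell and MAU2 (0.63), a loader subunit, rose; those that fell included SMC1A (-1.08), STAG2 (-0.86) and SMC3 (-0.57), and the median was -0.06. The 41.7% of cohesin genes called was near the share over all genes. Of 17 inner kinetochore and centromere loading genes, 10 fell and none rose, with MIS18A (-1.93), a licensing factor for CENPA, CENPK (-1.78), CENPN (-0.57) and HJURP (-0.42), the CENPA chaperone. Of 16 further outer kinetochore and checkpoint genes, 11 fell and none rose, among them PMF1 (-1.39), ZWINT (-1.08), KNTC1 (-1.04) and SKA2 (-0.62). Their medians were -0.52 for condensin, -0.47 for the inner and -0.56 for the outer kinetochore.

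Of 33 tested spindle and centrosome genes outside the set, 14 fell and HAUS6 (0.60), an augmin subunit, rose (45.5% called), with a median of -0.25. The spindle genes KIF20B (-1.25), GTSE1 (-1.003), SPAG5 (-0.84) and CKAP5 (-0.61) had the smallest p. Of 17 further entry and kinase genes, 11 fell and WEE1 (0.43), the kinase that restrains CDK1, rose; PBK (-1.21), ARPP19 (-1.03), CDCA3 (-0.87) and CDCA2 (-0.86) were among the falls. Of 12 tested cytokinesis genes, 9 fell, with TSG101 (-1.18), ARHGAP11A (-1.03) and SHCBP1 (-0.73), and MYH9 (0.60), a non-muscle myosin, rose.

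Regulators that bind CHR and CCAAT elements were called about as often as all genes. Of 16 tested genes of MuvB, DREAM, NF-Y and related cell cycle regulators, 2 fell and 4 rose (37.5% called, against 39.1% of all genes), and the median was 0.00. TFDP1 (-0.91), the E2F partner, and RBL1 (-0.64), which encodes p107, fell. E2F5 (0.74), CDKN1A (0.64), which encodes the CDK inhibitor p21, RBL2 (0.43), which encodes p130, and LIN37 (0.39) rose. Both counts moved with single libraries. DESeq2 called 2 higher, as did the fits without replicate 1 or 3 of si-SNHG17 or replicate 2 of si-NC, and 1 was called lower without replicate 1 or 2 of si-SNHG17 or replicate 2 of si-NC.

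Of 29 DNA replication genes, 20 fell (69.0%, against 19.6% of all genes tested). CDT1 (0.49), an origin licensing factor, rose, and the median of the list was -0.77. GINS1 (-2.11), MCM6 (-1.24), POLE (-1.14) and CDC6 (-1.09) had the smallest p. The mitotic and replication genes come from the same libraries, and the difference between their medians was not tested.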

How the data were processed

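RNA from 6 A549 libraries was sequenced on an Ion Proton, single-end, per the labels' protocols. The deposited table holds raw counts, whole numbers with no normalization, for 54261 genes. GRCh38 is named in the submitters' processing notes. No aligner, counter, annotation or strand setting is named in those notes or the labels. Groups came from the sample titles. edgeR 4.0.16 (R 4.3.3) tested the 15614 genes that passed filterByExpr, using TMM scaling and a quasi-likelihood model (glmQLFit, glmQLFTest) without covariates. P-values were Benjamini-Hochberg adjusted over all 15614 genes and called at 0.05. A negative log2 fold change means lower after the SNHG17 siRNA. CPM uses the scaled library sizes, apart from the limits for a count of 0, which use raw totals. The procedure was tested on simulated data. Partner ratios used a prior count of 0.5 and exact two-sided permutation tests (scipy 1.17.1). Lengths and overlaps came from GENCODE 29. KNL1 and HASPIN were matched by RefSeq synonyms. The genes and lists were chosen with earlier results of these data known.

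Values in every library are given, by rule, for the 2 genes of each role class with the smallest p, the one with the fold change nearest 0, and all that did not pass; up to 4 genes with the smallest p are named per further list. Other genes that rose in those lists were named after their values were seen. Alternatives were DESeq2 1.42.0, limma-voom 3.58.1, other scalings and filters, a replicate block and leaving out each library.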

Additional observations from a re-analysis of the deposited data

How the results depend on the processing

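The robust fit was chosen after the data were seen, and the other alternatives were planned. The counts of mitotic genes kept their direction in every alternative: 44 to 47 were lower and 1 higher under the other scalings, tests and filters, and 41 to 49 were lower and 1 higher when each library was left out. Requiring 2-fold left 10 lower and 0 higher of them, and 1465 genes in the whole table, 768 lower and 697 higher, by construction. The median log2 fold change was -0.5648 with library totals only and lay between -0.6425 (si-NC replicate 3 left out) and -0.5755 when each library was left out; the cause was not tested. Over the whole table, 4911 to 6601 genes were called when a library was left out and 5422 with DESeq2. The share called higher was larger with library totals only, at 3407 of 6138. TTK, never past the threshold, turned to -0.0374 without si-SNHG17 replicate 1 and to -0.0438 without si-NC replicate 3, and leaving out each library gave values up to 0.1004. CKAP2 and ESPL1 were also lost with DESeq2, library totals only, no filter and the block. With a replicate block, 5579 genes were called, 46 mitotic genes lower and 1 higher. Libraries of like number had correlations of 0.061, -0.114 and -0.091 between their deviations from the group means, so the numbers were not taken to pair them. Low counts limit the precision for KIF11, NDC80, BORA and CENPF, which did not pass or were not tested. They also limit it for CENPE, SPC25 and KIF18A, which were called lower.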

Other observations

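Of the 55 mitotic genes, 5 lie on chromosome 20. Of these, CDC25B rose (log2 fold change 0.28), MYBL2 (-0.81), TPX2 (-0.44) and AURKA (-0.42) fell, and UBE2C (-0.13) did not pass edgeR's test. The exons of 23 of the 55 genes overlap those of another GENCODE gene, on the same strand for 4 of them (NUSAP1, PRC1, BUB1B and CENPA), and how the deposited counts treated such reads is not stated.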
